A study of Danio rerio with 18 samples.

Results

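The cryptochrome genes of the zebrafish were followed through the first days of heart regeneration. Cryptochromes descend from photolyases, enzymes that use light to repair DNA, and several vertebrate members instead act in the circadian clock. In that loop CLOCK and BMAL1 proteins switch on the period and cryptochrome genes, and the PERIOD and CRYPTOCHROME proteins then repress CLOCK and BMAL1. In zebrafish the clocks of peripheral organs, the heart included, respond directly to light, and cry1aa is among the genes that light induces there.

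The 5 genes cry1aa, cry1ab, cry1ba, cry1bb and cry5 were chosen by symbol, and all 5 were found among the 15268 genes of the authors' expression table. They were listed with earlier results for the same 6 libraries known, so their levels and differences over time are given as a description. Where they are counted by a calling rule, the count is a description too and nothing is read from it. The study resected the ventricular apex of TAB zebrafish, a hybrid of the AB and Tubingen lines, and sequenced RNA of the newly regenerated heart tissue on days 0, 6 and 9 after amputation (days post amputation, dpa). Each time point had 2 replicate libraries, named biological replicates by the study, and 0 dpa was the point of comparison. Uninjured or sham-operated hearts were not analysed here, and the age and the number of fish per library are not given in the sources used here. The fish lived under 14 h of light and 10 h of dark, and neither the labels nor the methods give the hour at which hearts were dissected. Expression was given as FPKM, a fragment count scaled by transcript length and library size, which allows levels of different genes to be set side by side.

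The summed FPKM lay between 803421 and 1330110 per library, and was highest in 0 dpa replicate 1. The SD of the log2 difference between replicates over 9363 fitted genes was 0.80 on day 0, 0.59 on day 6 and 0.47 on day 9. FPKM does not carry read counts, so error is judged only from the spread between the 2 replicates of each time point. The standard errors given below pool that spread over all 6 libraries in 1 limma fit, with a prior taken from all fitted genes. All 9 markers of working myocardium in the table were above 0 in every library and held between 5.43 and 8.08% of the summed FPKM. Of them, 0 had a higher mean at 6 or 9 dpa than at 0 dpa, and all 9 had a higher mean at 9 than at 6 dpa. By the calling criteria described below, 1 was lower at 6 than at 0 dpa and 0 differed between 9 and 0 dpa. Beside this and the following counts, 7.86% of all genes tested were called higher and 7.51% lower at 6 dpa. At 9 dpa these shares were 6.82 and 5.72%. Of 10 markers of red blood cells other than haemoglobin, 8 met the calling criteria described below as higher at 6 than at 0 dpa and 6 as higher at 9 than at 0 dpa. Their summed FPKM was 5095 to 5582 at 6 dpa and 3229 to 5039 at 9 dpa, against 1270 to 2437 at 0 dpa, and no marker of this list was at 0. The haemoglobin genes, of the same cells, went the other way at 6 dpa, with 4 of 8 tested lower and 1 higher. They held 2.71% of the summed FPKM at 6 dpa and 9.12 to 10.3% at 9 dpa, against 7.77 to 8.82% at 0 dpa, and 3 to 5 of the 12 were at 0 in a library. The 11 markers of macrophages and neutrophils summed to 2006 to 2187 FPKM at 6 dpa and 1084 to 1276 at 9 dpa, against 778 in replicate 1 and 3490 in replicate 2 of 0 dpa, with none at 0. Of the markers of other cells, 3 of 5 for epicardium and 4 of 10 for epidermis were called higher at 6 than at 0 dpa, and 1 of 5 for endothelium lower. The summed FPKM overlapped between 6 and 0 dpa for epicardium (180 to 268 against 141 to 196) and epidermis (2621 to 3244 against 2102 to 3672), and not for endothelium (184 to 187 against 226 to 296). No epicardial or endothelial marker was at 0, and up to 4 of 12 epidermal ones were in a library. The part of these cell types in the cryptochrome levels was not tested. In tissue RNA, fewer cells of a type and less RNA per cell cannot be told apart.

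The cryptochromes did not move as a group. The cry1a pair (cry1aa and cry1ab) and cry5 were lower at 6 and 9 dpa than at 0 dpa, and the cry1b pair (cry1ba and cry1bb) was higher at both. RefSeq lists the cry1a pair as cry1a and cry1b, and the cry1b pair as cry3a and cry3b with cry2a and cry2b as synonyms. All 4 proteins of these pairs are known to repress CLOCK and BMAL1 in zebrafish cell assays. They are close paralogs, and how the authors' quantification divided shared reads is not known.

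Cry1aa was the most abundant of the 5 genes at 0 dpa. It had 119 and 79.9 FPKM in the 0 dpa libraries, then 47.9 and 51.0 by 6 dpa and 56.5 and 48.2 by 9 dpa. Both libraries of 0 dpa lay above all 4 later ones, and 6 and 9 dpa overlapped. The means were 49.4 ± 2.20 FPKM at 6 dpa against 99.2 ± 27.3 at 0 dpa (SD, n = 2 each), 0.498 times the earlier level. On the scale of log2(FPKM + 1), which understates differences of low genes, the difference was -0.96 (standard error 0.30) between 6 and 0 dpa and -0.89 (standard error 0.30) between 9 and 0 dpa. The gap between the 0 dpa replicates was narrower relative to the summed FPKM of their libraries. As ppm of that sum, cry1aa had 60.1 ± 4.69 at 6 dpa and 51.9 ± 2.21 at 9 dpa, against 88.2 ± 1.27 at 0 dpa (SD, n = 2 each). On this scale the 0 dpa gap was also narrower for cry1ab and cry1bb. For cry1ba (5.93 and 8.09 ppm) and cry5 (3.35 and 7.32 ppm) it was wider than in FPKM.

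Cry1ab, its paralog, went the same way at a lower level and with a wider spread. It had 29.8 and 14.1 FPKM in the 0 dpa libraries, then 11.7 and 9.49 by 6 dpa and 13.6 and 8.23 by 9 dpa. The groups did not overlap, but the nearest libraries, 14.1 at 0 dpa and 13.6 at 9 dpa, almost met. The log2 difference was -0.90 at 6 dpa and -0.89 at 9 dpa, each with a standard error of 0.39. Replicate 1 at 0 dpa carried much of it: without that library the differences were -0.39 and -0.38.

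Cry1ba had the largest difference of the 5 genes on the log2(FPKM + 1) scale. With a pseudocount of 0.1 the difference of cry5 at 9 dpa was larger (-2.49, against 2.40 for cry1ba). It had 7.89 and 7.40 FPKM in the 0 dpa libraries, then 34.3 and 42.2 by 6 dpa and 45.0 and 37.0 by 9 dpa. The later libraries were all above the 0 dpa libraries, which lay close together, and 6 and 9 dpa overlapped. The mean was 38.2 ± 5.54 FPKM at 6 dpa against 7.64 ± 0.350 at 0 dpa (SD, n = 2 each), a ratio of 5.00, and 41.0 ± 5.70 at 9 dpa, a ratio of 5.37. The log2 differences were 2.18 and 2.28 (standard error 0.26 each). They stayed between 2.03 and 2.57 over the 15 other settings tried.

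Cry1bb was higher at both later times by a smaller factor. It had 30.3 and 17.1 FPKM in the 0 dpa libraries, then 40.2 and 48.8 by 6 dpa and 67.6 and 50.4 by 9 dpa. The libraries of the 3 time points formed 3 ranges without overlap, the highest at 9 dpa. The ratio of the means was 1.87 at 6 dpa and 2.49 at 9 dpa, with log2 differences of 0.93 and 1.32 (standard error 0.34 each). Without 0 dpa replicate 2, the lowest library of the 6, the difference at 6 dpa was 0.53 and at 9 dpa 0.92.

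Cry5 encodes the 6-4 photolyase of zebrafish, which uses light to repair a class of ultraviolet damage, and is the only one of the 5 known for DNA repair rather than for the clock loop. It was the least abundant, with 4.45 and 6.70 FPKM in the 0 dpa libraries, then 1.12 and 1.504 by 6 dpa and 0.717 and 1.11 by 9 dpa. All later libraries were below both of 0 dpa. Its means were 1.31 ± 0.269 FPKM at 6 dpa and 0.912 ± 0.276 at 9 dpa, against 5.57 ± 1.59 at 0 dpa (SD, n = 2 each). The gene passed the minimum average of 3 FPKM only through 0 dpa, the group in which it was high. Its log2 differences were -1.49 and -1.77 (standard error 0.42 each), with replicate 2 the higher library at every time point, unlike cry1ab.

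**Figure D1:**
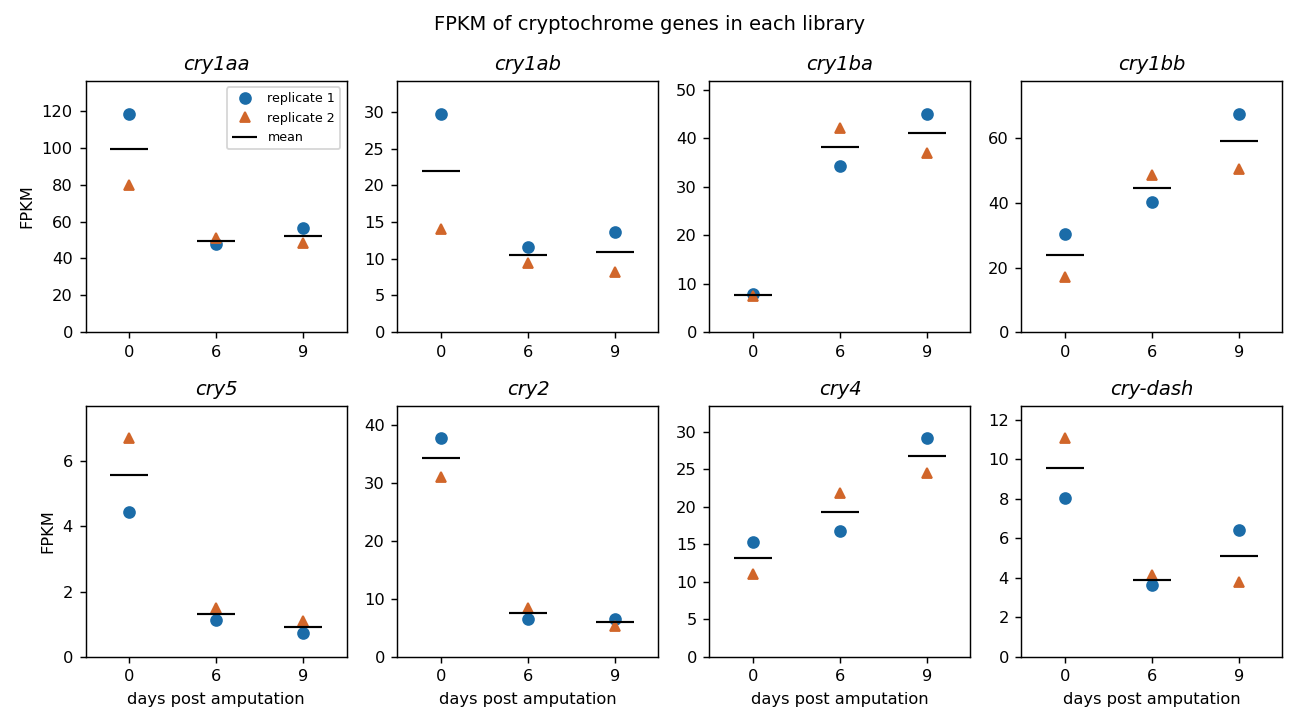
FPKM (vertical axes, each from 0) of the 5 listed cryptochrome genes and of cry2, cry4 and cry-dash against days post amputation, with 1 point per library and a bar at the mean of 2 replicates. Cry1aa, cry1ab, cry5, cry2 and cry-dash are lower in every library of 6 and 9 dpa than in both of 0 dpa, and cry1ba, cry1bb and cry4 are higher.

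A gene met the study's 3 criteria with an unadjusted P value under 0.05 in limma, a change of 1.5-fold or more in log2(FPKM + 1) and an average of at least 3 FPKM in at least 1 of the 2 groups. Over all genes 15.4% of 9275 met them between 6 and 0 dpa (7.86% higher and 7.51% lower), and 12.5% of 9015 between 9 and 0 dpa (6.82% higher and 5.72% lower). The 5 cryptochrome genes, chosen with these comparisons in view, had 5 of 5 past the criteria at 6 dpa (2 higher and 3 lower) and 4 of 5 at 9 dpa (2 higher and 2 lower), all but cry1ab. Cry5 entered only through its level at 0 dpa, so these counts are no evidence about the genes. Both comparisons use the same 0 dpa libraries, so the similar direction at 6 and 9 dpa is no second observation. Groups without overlap were seen for 5 of 5 genes in each comparison, and for 45.7 and 41.1% of all genes tested.

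The count at 6 dpa was 3 to 5 in the settings that kept all libraries and 2 to 4 with a library left out. Cry1ab was past the criteria in only 3 of the 15 other settings. It dropped out with a pseudocount of 0.1, without the FPKM filter or with a minimum of 1 FPKM, in a fit of the compared groups, without a trend, without haemoglobin genes, after bringing every library to the same sum of FPKM, and without any 1 library other than 0 dpa replicate 2. The setting without haemoglobin genes, here and below, also brought the remaining genes to the same sum in every library. It put the all-gene median at 0.32 between 6 and 0 dpa. Same-sum scaling of all genes also took out cry1aa, with -0.55 for cry1aa and -0.51 for cry1ab. That scaling put the all-gene median at 0.39 between 6 and 0 dpa, with 2162 genes higher and 286 lower in place of 729 and 697. The count was 2 without 6 dpa replicate 1, 3 without 6 dpa replicate 2 and 3 without 0 dpa replicate 2. Leaving out 1 library put the difference at 6 dpa between -1.25 and -0.68 for cry1aa, -1.42 and -0.39 for cry1ab, 2.03 and 2.32 for cry1ba, 0.53 and 1.32 for cry1bb, and -1.74 and -1.24 for cry5. At 9 dpa cry1aa dropped out without 0 dpa replicate 1 (-0.60), 9 dpa replicate 1 (-0.998) or 9 dpa replicate 2 (-0.77). The direction of each gene against 0 dpa was the same in all 15 other settings. As the groups did not overlap, only the scalings could have reversed it.

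Between 9 and 6 dpa 0 of the 4 cryptochrome genes with enough expression met the criteria, beside 3.41% of 9157 genes tested. The log2 difference was 0.08 for cry1aa (standard error 0.30), 0.01 for cry1ab (0.39) and 0.10 for cry1ba (0.26). Cry1bb had 0.39 (standard error 0.34) and was the only one of these 4 whose libraries did not overlap, with 67.6 and 50.4 FPKM at 9 dpa against 40.2 and 48.8 at 6 dpa. The gap between the groups, 50.4 at 9 dpa against 48.8 at 6 dpa, was smaller than that between replicates, and 36.5% of all genes tested did not overlap. Rescaling to the same sum of FPKM turned the other 3 differences negative (-0.21, -0.26 and -0.18). Errors of this size leave room for a change in either direction for all 4 genes, cry1bb included. Cry5, at 0.717 and 1.11 FPKM at 9 dpa against 1.12 and 1.504 at 6 dpa, was below the minimum for this comparison.

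Shares of the 5 genes within a library are free of differences in scaling between libraries. Cry1aa made up 62.9 ± 1.24% of their summed FPKM on day 0, 34.4 ± 1.47% on day 6 and 32.0 ± 1.74% on day 9 (SD, n = 2 each). The cry1b pair together held 19.8 ± 0.317% on day 0, 57.3 ± 3.08% on day 6 and 60.8 ± 0.770% on day 9. The ratio of cry1aa to cry1ba was 15.0 and 10.8 for 0 dpa, 1.39 and 1.21 for 6 dpa, and 1.25 and 1.304 for 9 dpa. By contrast the ratio of cry1aa to its paralog cry1ab was 3.98 and 5.67 for 0 dpa, 4.10 and 5.37 for 6 dpa, and 4.15 and 5.86 for 9 dpa, 3 ranges that overlapped. The summed FPKM of the 5 genes was 191 and 125 for 0 dpa, 135 and 153 for 6 dpa, and 183 and 145 for 9 dpa, ranges that overlapped.

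**Figure D2:**
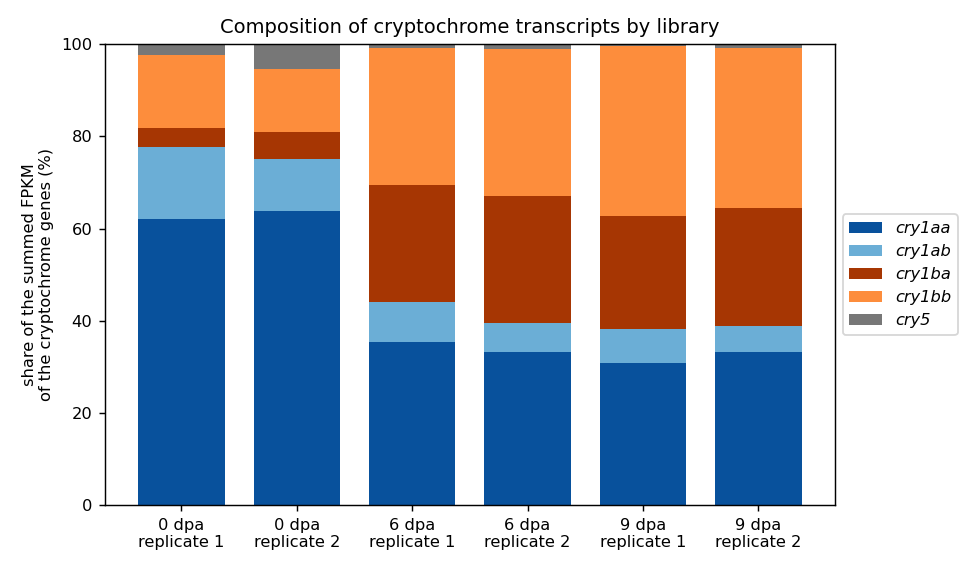
Share of each gene (percent, vertical axis) in the summed FPKM of the 5 listed cryptochrome genes, with 1 bar per library in order of days post amputation. The share of cry1aa is 62.9% on average at 0 dpa and 34.4 and 32.0% at 6 and 9 dpa, while cry1ba and cry1bb together take 57.3 and 60.8% at the later times.

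The order of the levels was the same in both replicates of a time point. At 0 dpa it ran cry1aa, cry1bb, cry1ab, cry1ba and cry5 from high to low. Of these neighbours, cry1bb and cry1ab did not differ beyond their spread. At 6 dpa the order was cry1aa, cry1bb, cry1ba, cry1ab and cry5, and the ranges of the first 3 overlapped from neighbour to neighbour. At 9 dpa cry1bb stood above cry1aa and cry1ba, and its range overlapped that of cry1aa but not that of cry1ba.

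The table holds 3 further genes of the family, which were outside the listed set. They too were chosen with earlier results of these data known, so their p-values are given as a description. Cry2 fell, cry-dash was lower and cry4 was higher. Cry2, listed by RefSeq with the synonym zcry3, and cry4 are cryptochromes for which zebrafish cell assays found no repression of CLOCK and BMAL1. Cry-dash belongs to the DASH branch, which stands closer to photolyases.

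Cry2 had 37.7 and 31.0 FPKM in the 0 dpa libraries, then 6.52 and 8.45 by 6 dpa and 6.58 and 5.36 by 9 dpa. All 4 later libraries were far below the 0 dpa libraries. Its log2 difference was -2.06 at 6 dpa (standard error 0.25, adjusted p = 0.0253 in limma) and -2.34 at 9 dpa (adjusted p = 0.0163). It met the 3 criteria in all 15 other settings, with the adjusted p-value between 0.0274 and 0.124 at 6 dpa and between 0.0219 and 0.185 at 9 dpa. Cry4 had 15.3 and 11.1 FPKM in the 0 dpa libraries, then 16.8 and 21.9 by 6 dpa and 29.1 and 24.5 by 9 dpa, and so was higher in each later library. It met the 3 criteria at 9 dpa with a log2 difference of 0.98 (standard error 0.28, limma adjusted p = 0.220), not without 9 dpa replicate 1 (0.86), and did not meet them at 6 dpa (0.53, adjusted p = 0.413). At 6 dpa it did meet them without 0 dpa replicate 1 (0.74), without haemoglobin genes (0.84) and after rescaling to the same sum (0.93). Cry-dash had 8.06 and 11.1 FPKM in the 0 dpa libraries, then 3.65 and 4.13 by 6 dpa and 6.41 and 3.81 by 9 dpa, lower in each later library. It met the 3 criteria with log2 differences of -1.10 at 6 dpa (limma adjusted p = 0.154) and -0.81 at 9 dpa (adjusted p = 0.334), but not after rescaling to the same sum (-0.75 and -0.70) or without haemoglobin genes (-0.82 and -0.68). At 9 dpa it also lost the call without 0 dpa replicate 2, 6 dpa replicate 1 or 9 dpa replicate 2, with differences of -0.60, -0.81 and -0.50, and at 6 dpa without 6 dpa replicate 1 (-1.03). Of these 3 genes, cry2 passed a Benjamini-Hochberg adjusted threshold of 0.05, as did 0.712% of all genes tested at 6 dpa and 0.366% at 9 dpa.

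**Figure D3:**
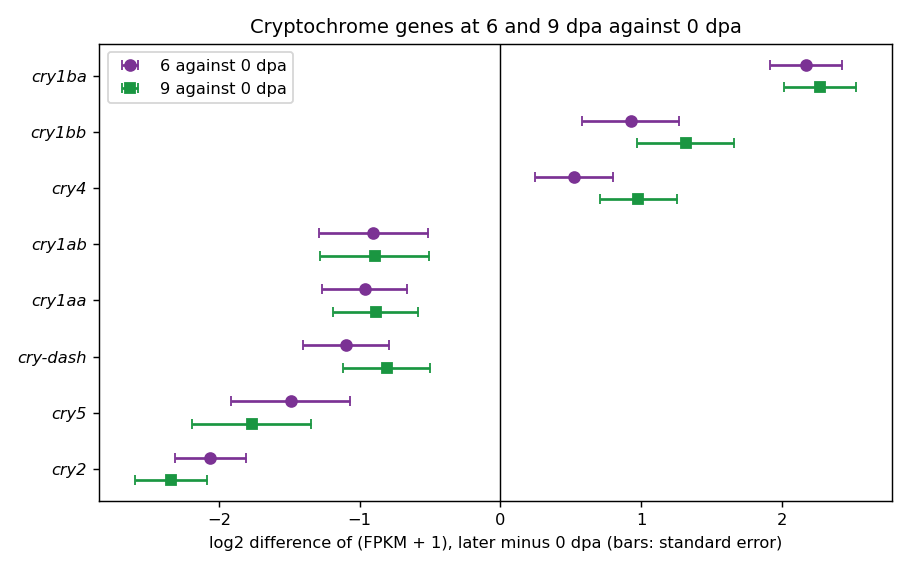
Log2 difference of FPKM + 1 (horizontal axis, later time minus 0 dpa) for 8 cryptochrome genes, with circles for 6 dpa, squares for 9 dpa and bars of 1 standard error from limma. Cry1ba lies highest at 2.18 and 2.28 and cry2 lowest at -2.06 and -2.34.

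The genes that cryptochromes work with moved in both directions. A list of clock genes (activators, a period group, nuclear receptors and bZIP output genes) was chosen with earlier results of these data known. Of its 29 genes tested at 6 dpa, 24 met the 3 criteria (9 higher and 15 lower) beside 15.4% of all genes, and at 9 dpa 22 of 29 did (8 higher and 14 lower) beside 12.5%. Of the activators that drive cryptochrome transcription, 4 of 5 genes tested were called higher at 6 dpa and 2 of 4 at 9 dpa, and 0 lower. Over all genes tested, 7.86 and 6.82% were called higher. Arntl1b, and clocka at 6 dpa, reached 3 FPKM only at the later times, so only a higher call was open to them. Arntl1a, which encodes a BMAL1 protein, had 3.26 and 2.86 FPKM in the 0 dpa libraries, then 14.0 and 13.1 by 6 dpa and 19.5 and 13.2 by 9 dpa. Its log2 differences were 1.85 (limma adjusted p = 0.0320) and 2.07 (adjusted p = 0.0261), and over the 15 other settings the adjusted p lay between 0.0227 and 0.189 and between 0.0233 and 0.247. Its paralog arntl1b rose by 1.78 and 2.00 (limma adjusted p = 0.0336 and 0.0288). Clocka, at 3.67 ± 1.12 FPKM at 6 dpa against 0.702 ± 0.167 at 0 dpa (SD, n = 2 each), and clockb, at 10.9 ± 2.02 against 5.71 ± 0.238, met the criteria at 6 dpa (1.44 and 0.82, limma adjusted p = 0.163 and 0.168). At 9 dpa clockb did not meet them (0.38) and clocka was below 3 FPKM. At 6 dpa clockb lost the call without 6 dpa replicate 2 (0.64). Npas2, a paralog of the CLOCK genes, did not meet the criteria (-0.24 and -0.11).

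The period group held per1a, per1b, per2, per3, timeless, tipin, ciarta, bhlhe40 and bhlhe41, not all of them partners of the cryptochromes in repression. Of these 9 genes, 7 fell by the 3 criteria at each later time and 0 rose. Ciarta and per1a reached 3 FPKM only at 0 dpa, so only a lower call was open to them. Of all genes tested, 7.51% were called lower at 6 dpa and 5.72% at 9 dpa. The other 2 of the period group, timeless (0.32 and 0.15) and tipin (0.05 and -0.03), did not meet the criteria. Per1b, a PERIOD protein gene, had 6.44 ± 1.08 FPKM at 6 dpa and 4.03 ± 0.470 at 9 dpa, against 45.2 ± 9.97 at 0 dpa (SD, n = 2 each). Its log2 differences were -2.63 and -3.19 (limma adjusted p = 0.0103 and 0.00496). Per1a had differences of -2.34 and -2.38 (limma adjusted p = 0.0780 and 0.113). Ciarta, a repressor of CLOCK and BMAL1, fell by the criteria, with differences of -3.53 and -3.13 (limma adjusted p = 0.00208 and 0.00491). Bhlhe41, a bHLH repressor that competes for the same promoter elements, also fell, with -2.57 and -1.63 (limma adjusted p = 0.00702 and 0.0431). It was among the 2 clock genes that met the criteria between 9 and 6 dpa, with a difference of 0.94 (limma adjusted p = 1.000).

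The nuclear receptors moved both ways, with 2 higher and 3 lower of 6 tested at 6 dpa and 3 higher and 2 lower of 7 at 9 dpa. Over all genes tested, 7.86% were called higher and 7.51% lower at 6 dpa, and 6.82 and 5.72% at 9 dpa. Rorcb, and nr1d4b at 9 dpa, reached 3 FPKM only after 0 dpa. Nr1d1 reached it only at 0 dpa in the comparison of 9 with 0 dpa. Nr1d1, a REV-ERB repressor of arntl transcription, differed by -3.61 and -4.01 (limma adjusted p = 0.00208 and 0.00122), and rorcb, a ROR gene of the opposing activators, by 1.95 and 2.29 (adjusted p = 0.0320 and 0.0246). Nr1d2b differed by -1.57 and -2.13 (limma adjusted p = 0.0765 and 0.0463). Nr1d2a, another REV-ERB gene, had 16.4 ± 5.71 FPKM at 6 dpa and 80.0 ± 21.0 at 9 dpa, against 107 ± 18.3 at 0 dpa (SD, n = 2 each). It met the criteria between 6 and 0 dpa (-2.66, limma adjusted p = 0.0296) and between 9 and 6 dpa (2.23, adjusted p = 0.328), and not between 9 and 0 dpa (-0.43). Among bZIP output genes, 3 rose and 5 fell at each later time of 9 tested, beside the same shares of all genes. Nfil3-2 reached 3 FPKM only at the later times, and dbpa only at 0 dpa. Nfil3-2, of the NFIL3 repressors, rose by 3.40 at 6 dpa and 3.94 at 9 dpa (limma adjusted p = 0.0119 and 0.00702), and nfil3-5 by 2.54 and 3.53 (adjusted p = 0.0520 and 0.0253). Dbpa, of the activators that bind the same elements, had -1.85 and -2.72 (limma adjusted p = 0.0716 and 0.0297), and dbpb -1.15 and -1.41 (adjusted p = 0.147 and 0.150). Dbpb lost the call at 6 dpa without 6 dpa replicate 1 (-0.88).

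The adjusted p-values of the clock genes depended on the setting. Of those named with an adjusted p under 0.05, nr1d1 and ciarta at 6 dpa stayed under it in all 15 other settings (limma adjusted p at most 0.0322 for each), and each of the others passed above it in at least 1. With the replicate number as a block, 0 higher and 12 lower genes of the whole table passed at 6 dpa, and 0 higher and 5 lower at 9 dpa. Ciarta passed the minimum average of 3 FPKM only through 0 dpa (28.3 FPKM, against 1.54 at 6 dpa and 2.35 at 9 dpa). So did per1a and dbpa, and nr1d1 in the comparison of 9 with 0 dpa. Nfil3-2, arntl1b, rorcb and clocka passed it only through later time points, in which they were high. So did nr1d4b in the comparison of 9 with 0 dpa (3.06 FPKM at 9 dpa, against 0.633). Each of these genes could be called only toward the group in which it was high. Their adjusted p-values, and the list counts that include them, are a description.

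A broad list for the turnover of CRY proteins was also chosen with earlier results of these data known. It includes casein kinases and general ubiquitin ligase subunits, so not all of its genes are specific to CRY. Of its 21 genes tested, 1 met the criteria at 6 dpa, beside 15.4% of all genes, and 2 at 9 dpa, beside 12.5%. Their median log2 difference was -0.16 and -0.10, beside -0.00283 and -0.03 over all genes. Fbxl3b, a subunit of the ubiquitin ligase that marks CRY for degradation, had 26.3 and 27.7 FPKM at 9 dpa against 19.4 and 12.3 at 0 dpa, a log2 difference of 0.76 that met the criteria (limma adjusted p = 0.321) in 11 of the 15 other settings. It did not without 0 dpa replicate 2 (0.46), 6 dpa replicate 1 (0.76), 9 dpa replicate 1 (0.80) or 9 dpa replicate 2 (0.73). Its paralog fbxl3a had 20.5 and 12.5 FPKM at 9 dpa against 11.6 and 7.15 at 0 dpa and did not. Usp2a, a deubiquitinase, had 65.7 ± 16.5 FPKM at 6 dpa and 110 ± 13.4 at 9 dpa, against 224 ± 101 at 0 dpa (SD, n = 2 each), and met the criteria at both (-1.70 and -0.94, limma adjusted p = 0.0978 and 0.371). At 9 dpa it met them in 9 of the 15 other settings, and failed them in a fit of the compared groups and without any 1 library other than 0 dpa replicate 2. Leaving out 1 library put its difference at 9 dpa between -1.41 and -0.46.

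Light induces cry1aa and cry5 in zebrafish together with per2, tefa and the repair gene ddb2. Of the 4 genes tested from the list of such genes (per2, tefa, ddb2 and neil1), 3 met the criteria as lower at each later time and 0 as higher. Of all genes tested, 7.51% were called lower at 6 dpa and 5.72% at 9 dpa. This list too was chosen with earlier results of these data known, and per2 and tefa also count in the groups above. A response to light was not tested. Per2 had 43.3 and 32.5 FPKM in the 0 dpa libraries, then 11.9 and 12.7 by 6 dpa and 13.0 and 13.3 by 9 dpa, with log2 differences of -1.54 and -1.45 (limma adjusted p = 0.0473 and 0.0778). Tefa, a bZIP activator, had differences of -1.16 and -1.20 (limma adjusted p = 0.119 and 0.173). Ddb2, which recognises ultraviolet lesions, had 11.3 and 9.85 FPKM in the 0 dpa libraries, then 3.88 and 4.54 by 6 dpa and 3.65 and 3.36 by 9 dpa. Its differences were -1.15 and -1.36 (limma adjusted p = 0.0892 and 0.0964). Neil1, a DNA glycosylase, did not meet the criteria, and xpc was below the minimum of 3 FPKM.

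**Figure D4:**
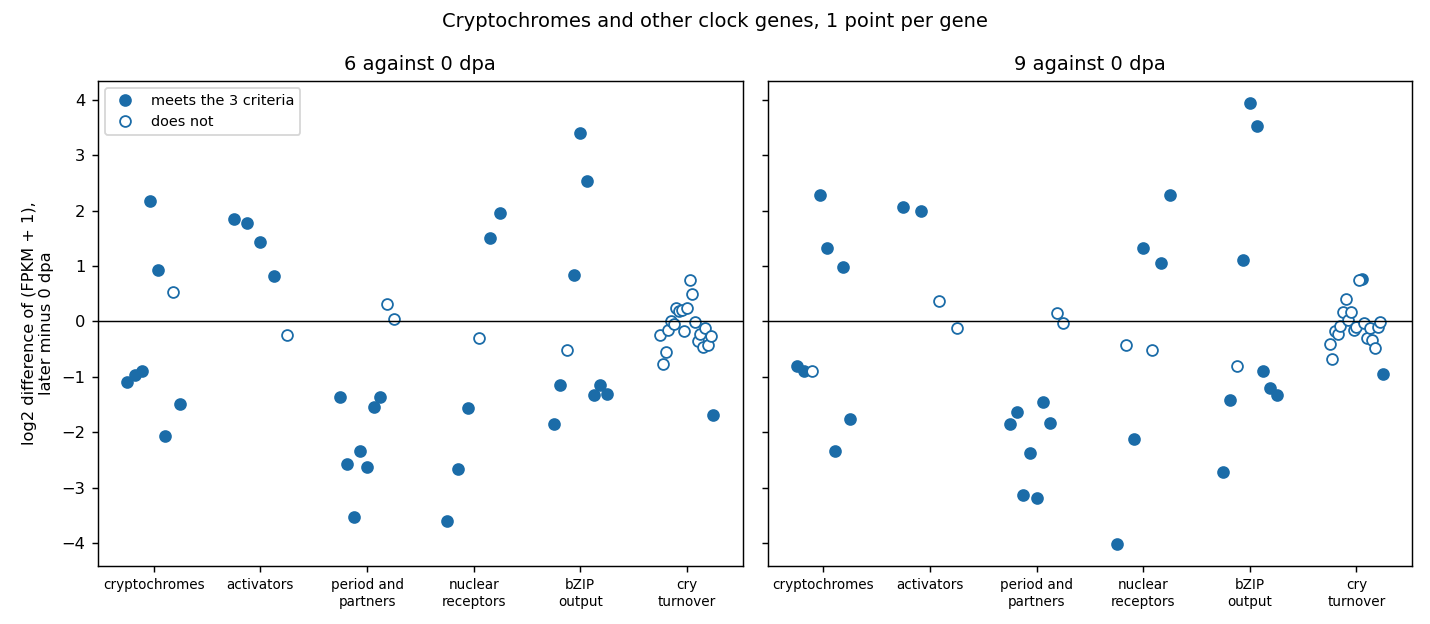
Log2 difference of FPKM + 1 (vertical axis) at 6 dpa (left) and 9 dpa (right), each minus 0 dpa, with 1 point per gene tested in 6 groups of clock genes and a filled point where the 3 criteria were met. The period group has 7 of 9 genes lower by the criteria in both panels, beside 7.51 and 5.72% of all genes. Of the 21 genes of the CRY turnover list 1 is filled at 6 dpa and 2 at 9 dpa, beside 15.4 and 12.5%.

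The genes with the most similar pattern were looked for among 4040 fitted genes whose log2(FPKM + 1) ranged over at least 1 between libraries. Likeness was Pearson's r over the 6 libraries, given as a description. All r share the same 6 libraries and their scaling, and for each of the 5 genes the 0 dpa libraries lay apart from the later ones. For cry1aa the nearest were zgc:55733 (r = 0.998), slc16a4, a monocarboxylate transporter (r = 0.995), and moxd1l (r = 0.994). Slc16a4 and moxd1l passed the minimum average of 3 FPKM only through 0 dpa. In the later libraries slc16a4 had 0.318 to 0.665 FPKM, and moxd1l had 0, 0, 0.108 and 0. For cry1ab they were hif1ab (r = 0.995), a hypoxia-inducible factor, eif1b (0.992), a translation factor, and tardbpl (0.992). For cry1ba they were cdc42ep3 (r = 0.996), asb15b (0.989) and the chemokine gene ccl38.1 (0.989), whose FPKM at 0 dpa is listed as 0 in each library. For cry1bb they were cat (r = 0.997), which encodes catalase, asb13a.1 (0.991) and asb10 (0.987). For cry5 they were hsp70.2 (r = 0.992) and hsp70.3 (0.975), which encode heat shock chaperones, and tigara (0.972). Like cry5, all of these passed the minimum average of 3 FPKM only through 0 dpa. Asb15b, ccl38.1 and asb13a.1 passed it only through 6 and 9 dpa, the groups in which they were high. Genes with r of at least 0.95 numbered 96 for cry1aa, 99 for cry1ab, 64 for cry1ba, 37 for cry1bb and 20 for cry5.

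The clock genes stood at different places in these orders. For cry1ba, arntl1a was at place 4 (r = 0.989), arntl1b at place 7 (0.987), nfil3-2 at place 8 and rorcb at place 13. For cry5, nr1d1 was at place 4 (r = 0.972), ddb2 at place 17, cry2 at place 20 and ciarta at place 21. Tefa was at place 14 for cry1aa (r = 0.986), and per2 at place 42 (0.970). Cry4 was at place 9 for cry1bb (r = 0.974). For cry1ab, csnk1db, a casein kinase of the clock, was at place 10 (r = 0.982). Of 39 clock and family genes compared for each member, 1 was in the first 100 of 4040 genes for cry1ab. The count was 3 for cry1aa, 6 for cry1ba, 2 for cry1bb and 11 for cry5, and was not tested. A place stands for a different r in each order, so the counts do not rank the members. Nr1d2b was at place 95 for cry5 with r = 0.891, and per1b at place 189 for cry1aa with r = 0.928. Opposite patterns, such as that of nr1d1 to cry1ba (r = -0.986), are not counted. Hsp70.2, the gene nearest to cry5, had 12.0 and 18.1 FPKM in the 0 dpa libraries, then 0.679 and 1.17 by 6 dpa and 0.489 and 0.839 by 9 dpa, with replicate 2 the higher at each time as for cry5. Cat had 43.4 and 26.0 FPKM in the 0 dpa libraries, then 55.6 and 67.8 by 6 dpa and 85.6 and 72.2 by 9 dpa, which like cry1bb gave 3 ranges without overlap.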

How the data were processed

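RNA of heart tissue was sequenced in 6 libraries, 2 each at 0, 6 and 9 dpa. Per the methods, STAR alignments to danRer10 were converted by the authors to the deposited FPKM values with Cufflinks. The versions and the gene annotation are not given in the sources used here. Cuffdiff is also listed among the upstream tools, and whether it rescaled the libraries to each other is not known. The values reach down to 8.62e-07 and are no whole reads, so counts per gene could not be recovered from them. The study lists the input and uniquely mapped reads of each RNA library, which were not used here. The ChIP-seq and PAC2 libraries were not analysed here. Limma 3.58.1 (R 4.3.3) was fitted to log2(FPKM + 1) (time point as the sole factor), over 9363 genes with an average of at least 3 FPKM in at least 1 time point. It took the place of the study's count model, since FPKM values are not counts. It had 3 residual degrees of freedom and a prior with a trend. Benjamini-Hochberg adjustment covered all genes tested in a comparison. The procedure was tested on simulated data. Symbols were matched to RefSeq names (15072 of 15268). Planned sequence comparisons were not made, and no coordinates are given. The members and gene lists were chosen with earlier results of these data known. Named were all listed members and family genes, up to 4 called genes per list with the largest differences from 0 dpa, and the 3 genes most like each member. Fbxl3a, neil1, xpc and csnk1db were named after their values were seen. Npas2, timeless and tipin were also named outside this rule, as list genes that did not meet the criteria. Alternatives were other pseudocounts, filters, scalings, groups fitted, priors, a replicate term and leaving out each library, where the lone library is taken to vary like the others. The planned setting without haemoglobin genes also rescaled the remaining genes to the same sum. Rescaling of all genes to the same sum of FPKM was added after the data were seen. Python 3.11.15, pandas 2.3.3 and matplotlib 3.10.9 made the summaries and figures.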

Additional observations from a re-analysis of the deposited data

How the results depend on the processing

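The sign of the 5 cryptochrome genes against 0 dpa was kept in all 150 values from the 15 other settings, most of which could not reverse it. The filters, the fit of the compared groups, the block and the fit without a trend left each difference as it was. As the groups did not overlap, a pseudocount or a library left out could not change a sign. Only the scalings could have done so. With 2 libraries per time point, single libraries decide which genes pass. The count of cryptochrome genes past the criteria between 6 and 0 dpa, 5 in the fit of all libraries, was 3 after rescaling to the same sum of FPKM (chosen after the data were seen) and 2 to 4 with a library left out. Between 9 and 0 dpa it was 3 to 5 with a library left out, against 4. The deviations of same-numbered libraries correlated by -0.08, 0.09 and 0.01 across genes, so no pairing by replicate number was seen over all genes. Pairing in a part of the genes was not tested. With the replicate number as a block the cryptochrome counts were 5, 5 and 0, and 12, 5 and 2 genes passed the adjusted p-value in place of 66, 33 and 3 between 6 and 0, 9 and 0, and 9 and 6 dpa. Counts over all genes moved further. Between 6 and 0 dpa the genes called were 2448 after rescaling to the same sum, and 985 to 2300 with a library left out, against 1426. Those with an adjusted p-value were 11 without the FPKM filter, 101 without haemoglobin genes, 21 in a fit of the compared groups, 37 without a trend, 271 after rescaling to the same sum, and 13 to 208 with a library left out. Between 9 and 0 dpa 586 to 1871 genes were called with a library left out, against 1131. Adjusted, they were 3 without the filter, 21 without haemoglobin genes, 16 in a fit of the compared groups, and 2 to 198 with a library left out. Between 9 and 6 dpa the genes called were 613 in a fit of the compared groups, 515 after rescaling to the same sum, and 168 to 630 with a library left out, against 312, and 2 to 125 passed the adjusted p-value with a library left out. Of the other clock and turnover genes, 2 were called between 9 and 6 dpa, against 7 without haemoglobin genes, 4 in a fit of the compared groups, 9 after rescaling to the same sum, and 2 to 4 with a library left out. Taking out haemoglobin genes and rescaling the rest to the same sum gave 1750 higher and 343 lower between 6 and 0 dpa. Between 9 and 0 dpa it gave 964 and 358 (884 and 374 after rescaling all genes, against 615 and 516). Between 9 and 6 dpa it gave 96 and 265 (57 and 458 after rescaling all genes, against 182 and 130). Median-ratio scaling gave 282 and 98 there. The planned promoter and protein comparison was not run.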
